A study of Rattus norvegicus with 24 samples.

Results

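The genes of the matrix metalloproteases (Mmp), of the secreted ADAMTS proteases (Adamts) and of the tissue inhibitors of metalloproteases (Timp) were followed in rat urethra after simulated vaginal delivery (SVD). The members were all genes of the deposited table whose symbol is Mmp, Adamts or Timp with a number. That rule uses no measured value, though it was chosen with earlier results of these data known. The members were 45 of 32883 genes, made up of 22 Mmp, 19 Adamts and 4 Timp genes. Of these, 36 averaged 2 or more normalized counts over the 24 samples and were tested (15 Mmp, 17 Adamts and all 4 Timp genes). The 9 untested members were Mmp1, Mmp1b, Mmp11, Mmp17 and Mmp28, with 0 reads in every sample, Mmp20, Mmp21 and Adamts13, with 1 read each, and Adamts18, with 6 reads.

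The animals were virgin female Sprague-Dawley rats of 12 weeks, and every group, saline included, had undergone SVD, which is pudendal nerve crush with vaginal distension. One hour later they received into the aorta saline, MABsallo or MABsallo-VEGF. MABsallo are allogeneic mesoangioblasts, vessel-associated progenitor cells grown from hind-limb muscle and sorted for alkaline phosphatase, that carried a lentivirus with eGFP and firefly luciferase. MABsallo-VEGF in addition carried a lentivirus in which the SFFV promoter drives VEGF165 with a truncated CD34, and their genotype is labelled VEGF OE against WT. The urethra was taken at 3d or 7d, giving 6 groups of 4 samples, and the labels mark MABsallo-VEGF 7d replicates 6 and 7 as recovery. RNA of whole urethra was sequenced, so fewer cells of a type and less RNA per cell cannot be told apart, nor can RNA of injected and host cells.

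MMPs are zinc-dependent enzymes that cut collagens, gelatin, elastin, laminins and other matrix proteins, and most are made as inactive proenzymes. ADAMTS proteases cut proteoglycans such as aggrecan and versican, or trim the ends of procollagens. TIMPs bind the active site of MMPs, and TIMP3 also inhibits several ADAMTS proteases. In injured tissue the balance of proteases and inhibitors governs how matrix is removed and laid down, and RNA levels do not measure enzyme activity.

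Samples had 2170695 to 10166052 reads counted on genes, and 1 read was worth 1.67 to 9.23 normalized counts. The cell-treated groups were the shallowest at 3d, with medians of 3452557 reads in MABsallo and 3928424 in MABsallo-VEGF against 4925904 in saline. On the first principal component of the 500 most variable genes (70.7% of their variance), saline 3d replicate 6 lay at 54.6 while the other saline 3d samples lay at -52.3, -14.9 and -6.43, and MABsallo-VEGF 3d replicate 4 lay at 0.70 while the others of its group lay between 57.3 and 75.2. Saline 3d replicate 6 thus lay within the range of MABsallo 3d (49.8 to 90.1), and MABsallo-VEGF 3d replicate 4 nearer to the saline samples of 3d than to its own group. Whether samples were exchanged could not be checked here. Results that rest on these 2 samples are given with and without them. Both were picked by their expression, so a p without them is no independent evidence. Smooth muscle and striated muscle markers were read in every group, as in a urethra, and so were urothelial markers apart from Krt20, which was at 0 in MABsallo 3d. The markers Col1a2, Pecam1, Myh1 and Myh2 were not analysed here.

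**Figure D1:**
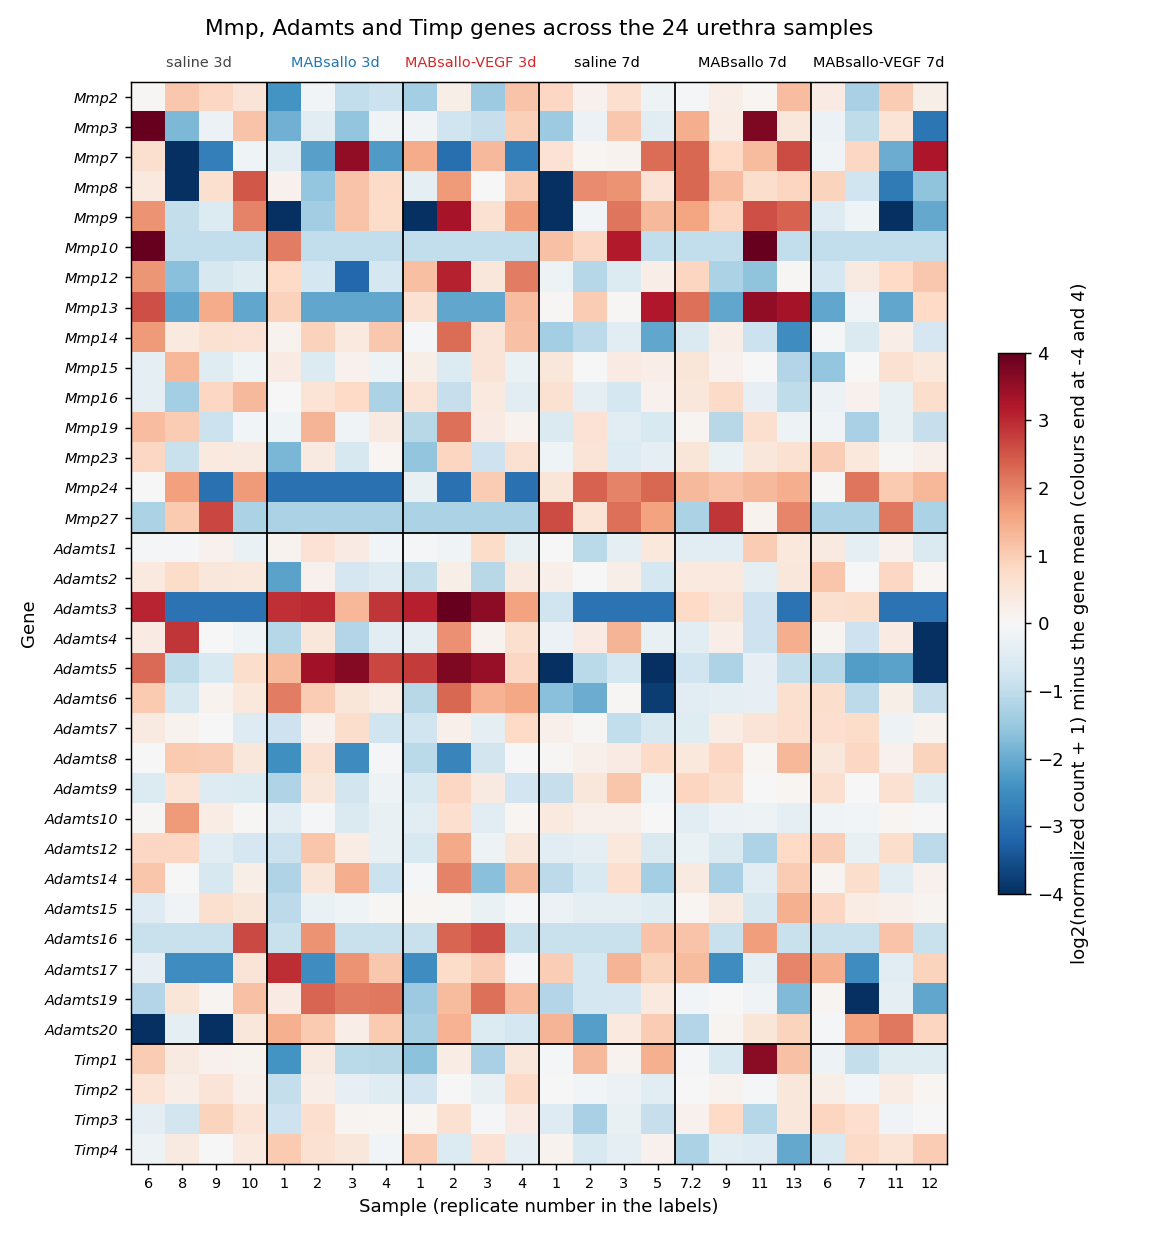
Each row is 1 of the 36 tested genes and each column 1 of the 24 samples, numbered by replicate; colour is log2(normalized count + 1) minus the gene's mean, from blue (lower) to red (higher). Adamts5 and Adamts3 are red in most cell-treated samples of 3d and blue in most samples of 7d. Mmp24 is at its lowest in all 4 MABsallo 3d samples, and also in MABsallo-VEGF 3d replicates 2 and 4 and saline 3d replicate 9.

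Levels are given as normalized gene counts. The libraries read the 3ʹ end of each transcript, so counts do not scale with gene length, and levels were compared between genes on that ground. Mmp14, the membrane-type MMP1 that cuts fibrillar collagen and activates proMMP2, had the highest mean over the 24 samples of the 41 protease genes. Timp2, its partner in that activation, had the highest of the 4 inhibitors. By the same means Mmp14 and Mmp2 were followed by Mmp7 among the Mmp genes, and Adamts2, Adamts15 and Adamts10 were the highest Adamts genes. The order differed between groups. Every saline 7d sample had more Mmp2 than Mmp14, and Timp1 lay above Timp2 in saline 7d replicates 2 and 5 and MABsallo 7d replicate 11.

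MABsallo were compared with saline at 3d to see what injected cells alone change early after injury. A gene was called where limma gave a two-sided Benjamini-Hochberg adjusted p below 0.05 together with a change of more than 1 on the log2 scale, fitted on log2(normalized count + 1) over all genes. Of the 36 members, 6 were called. Adamts3 and Adamts20 rose, and Mmp2, Mmp24, Adamts2 and Adamts8 fell. In the same comparison 12.3% of all genes tested were called (9.4% higher and 2.86% lower). The median log2 fold change was -0.20 over the members, -0.67 over the 15 Mmp genes, -0.16 over the 17 Adamts genes and -0.41 over the 4 Timp genes, while that of all genes was 0.07. With the samples scaled to the same total instead of by size factors, the median of all genes moved to -0.19 and its calls went from 1531 higher and 466 lower to 1109 higher and 1021 lower.

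Mmp2, the gelatinase that cuts denatured and basement membrane collagen, had 3423, 6895, 5839.6 and 4663 normalized counts in the saline 3d samples, 632, 3025, 1671 and 1812 in MABsallo 3d and 1292, 3834, 1196 and 7244 in MABsallo-VEGF 3d. Every MABsallo sample lay below every saline sample, whereas MABsallo-VEGF replicate 4 lay above them all. The fitted difference between MABsallo and saline was -1.70 ± 0.53 SE on the log2 scale with adjusted p = 0.0347 (limma). That between MABsallo-VEGF and saline was not called, with -0.98 ± 0.53 SE on the log2 scale with adjusted p = 0.341 (limma), and without the 2 samples that stand apart it was called, with -1.66 ± 0.55 SE on the log2 scale with adjusted p = 0.0428 (limma).

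Adamts2, the main procollagen I N-proteinase, had 2545, 3194, 2652 and 2569 normalized counts in saline, 440.2, 2188, 1200.1 and 1339.9 in MABsallo and 989.5, 2259, 903 and 2489 in MABsallo-VEGF at 3d. Both cell-treated groups lay wholly below saline. Of all genes, 14.7% for MABsallo and 4% for MABsallo-VEGF did not overlap with saline at 3d. The difference was -1.29 ± 0.39 SE on the log2 scale with adjusted p = 0.0305 for MABsallo, which was called, and -0.87 ± 0.39 SE on the log2 scale with adjusted p = 0.241 for MABsallo-VEGF, which was not (limma). Adamts3, its relative that trims procollagen II and activates VEGF-C, went the other way. It had 61.98, 0, 0 and 0 normalized counts in saline, 56.8, 60.2, 18.5 and 54.2 in MABsallo and 64.9, 125, 90.8 and 22.3 in MABsallo-VEGF. The one saline sample with reads was replicate 6. Over all samples Adamts3 was called for MABsallo (3.97 ± 1.20 SE on the log2 scale with adjusted p = 0.0307, limma) and not for MABsallo-VEGF (4.53 ± 1.20 SE on the log2 scale with adjusted p = 0.0798, limma). Without the 2 samples the saline group was at 0 reads, and Adamts3 was at least 12.9-fold higher in MABsallo and at least 25.5-fold higher in MABsallo-VEGF, counting 3 reads over the group as the limit.

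Mmp24, a membrane-type MMP known from the nervous system, had 6.89, 23.5, 0 and 24.6 normalized counts in saline and 0 in each in MABsallo at 3d. In MABsallo-VEGF 3d it was also low, at 5.41, 0, 15.1 and 0. MABsallo was therefore at least 2.70-fold lower, with the same limit, and it was called (adjusted p = 0.0328, limma). One saline sample was at 0 too, so the groups overlapped. Adamts20, a versican-cutting ADAMTS protease, had 0, 11.8, 0 and 21.1 in saline against 42.6, 32.8, 18.5 and 32.5 in MABsallo. Its call (2.93 ± 0.97 SE on the log2 scale with adjusted p = 0.0427, limma) was lost when any 1 of 7 of the 8 samples was left out, saline 3d replicate 10 being the exception. Both genes rest on few reads.

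Adamts8, an ADAMTS protease with reported anti-angiogenic domains, had 162, 333, 322 and 222 normalized counts in saline, 28.4, 246, 27.7 and 152 in MABsallo and 75.7, 25.003, 95.9 and 165 in MABsallo-VEGF at 3d. The MABsallo samples were spread widely, with replicates 1 and 3 lowest. The log2 fold changes were -1.73 ± 0.58 SE on the log2 scale with adjusted p = 0.0453 for MABsallo (called) and -1.73 ± 0.58 SE on the log2 scale with adjusted p = 0.132 for MABsallo-VEGF (not called, limma). Adamts5, the main aggrecanase of cartilage, had 86.1, 7.84, 10.7 and 28.2 in saline, 42.6, 186, 231 and 114 in MABsallo and 124, 242, 202 and 31.2 in MABsallo-VEGF. Saline replicate 6 lay within the cell-treated groups and the other saline samples below all of MABsallo. Adamts5 was not called over all samples (2.42 ± 0.92 SE on the log2 scale with adjusted p = 0.0758 for MABsallo, limma) and was called without the 2 (3.07 ± 0.90 SE on the log2 scale with adjusted p = 0.0181 for MABsallo and 3.67 ± 0.96 SE on the log2 scale with adjusted p = 0.0122 for MABsallo-VEGF, limma). Adamts10, which binds fibrillin microfibrils, had 1191, 3763, 1422 and 1207 in saline against 852, 1116, 775 and 949 in MABsallo. The groups did not overlap, but the log2 fold change of -0.86 missed the fold threshold with all samples.

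Adamts10, Adamts2 and Mmp2 were the 3 members whose MABsallo and saline samples of 3d did not overlap, against 14.7% of all genes. Calls for MABsallo against saline at 3d were lost when single samples were left out, which also leaves fewer samples and changes the adjustment. A lost call therefore does not show that it rested on that sample. Leaving out MABsallo 3d replicate 1 ended the calls of Mmp2, Mmp24, Adamts2, Adamts3, Adamts8 and Adamts20, and leaving out saline 3d replicate 8 ended the same 6. That saline sample also differed from the other saline 3d samples in its markers, with smooth muscle summing to 23412 against 104474 to 182795, urothelium to 792 against 11652 to 16704 and adipocyte to 4582 against 59.8 to 145 normalized counts, and the part of this in the calls was not tested. Leaving out MABsallo 3d replicate 3 ended those of Mmp2, Mmp24, Adamts2, Adamts8 and Adamts20. Without saline 3d replicate 9 the calls of Mmp2, Adamts2, Adamts3, Adamts8 and Adamts20 were lost. Without saline 3d replicate 10 those of Mmp2, Mmp24, Adamts3 and Adamts8 were lost. Leaving out MABsallo 3d replicate 2 ended the calls of Mmp24, Adamts3 and Adamts20. Leaving out MABsallo 3d replicate 4 or saline 3d replicate 6 ended that of Adamts20. With 1 sample left out the log2 fold changes ranged from -2.02 to -1.27 (largest adjusted p = 0.138, limma) for Mmp2, from -1.61 to -0.84 (largest adjusted p = 0.134, limma) for Adamts2, from -2.31 to -1.27 (largest adjusted p = 0.166, limma) for Adamts8 and from 3.47 to 5.46 (largest adjusted p = 0.117, limma) for Adamts3, with no change of sign. On the recovered reads edgeR called 3 members (Adamts10, Mmp3 and Mmp24) and DESeq2 6, beside 1342 and 1920 of all 16287 genes. A limma fit of only the 8 samples compared called 0 members. Further settings ended single calls, namely Adamts3, Adamts8 and Adamts20 with DESeq2, Mmp24, Adamts2 and Adamts20 with sample quality weights, Adamts3 and Adamts20 with quantile normalization and Mmp24, Adamts3, Adamts8 and Adamts20 with thinned reads.

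**Figure D2:**
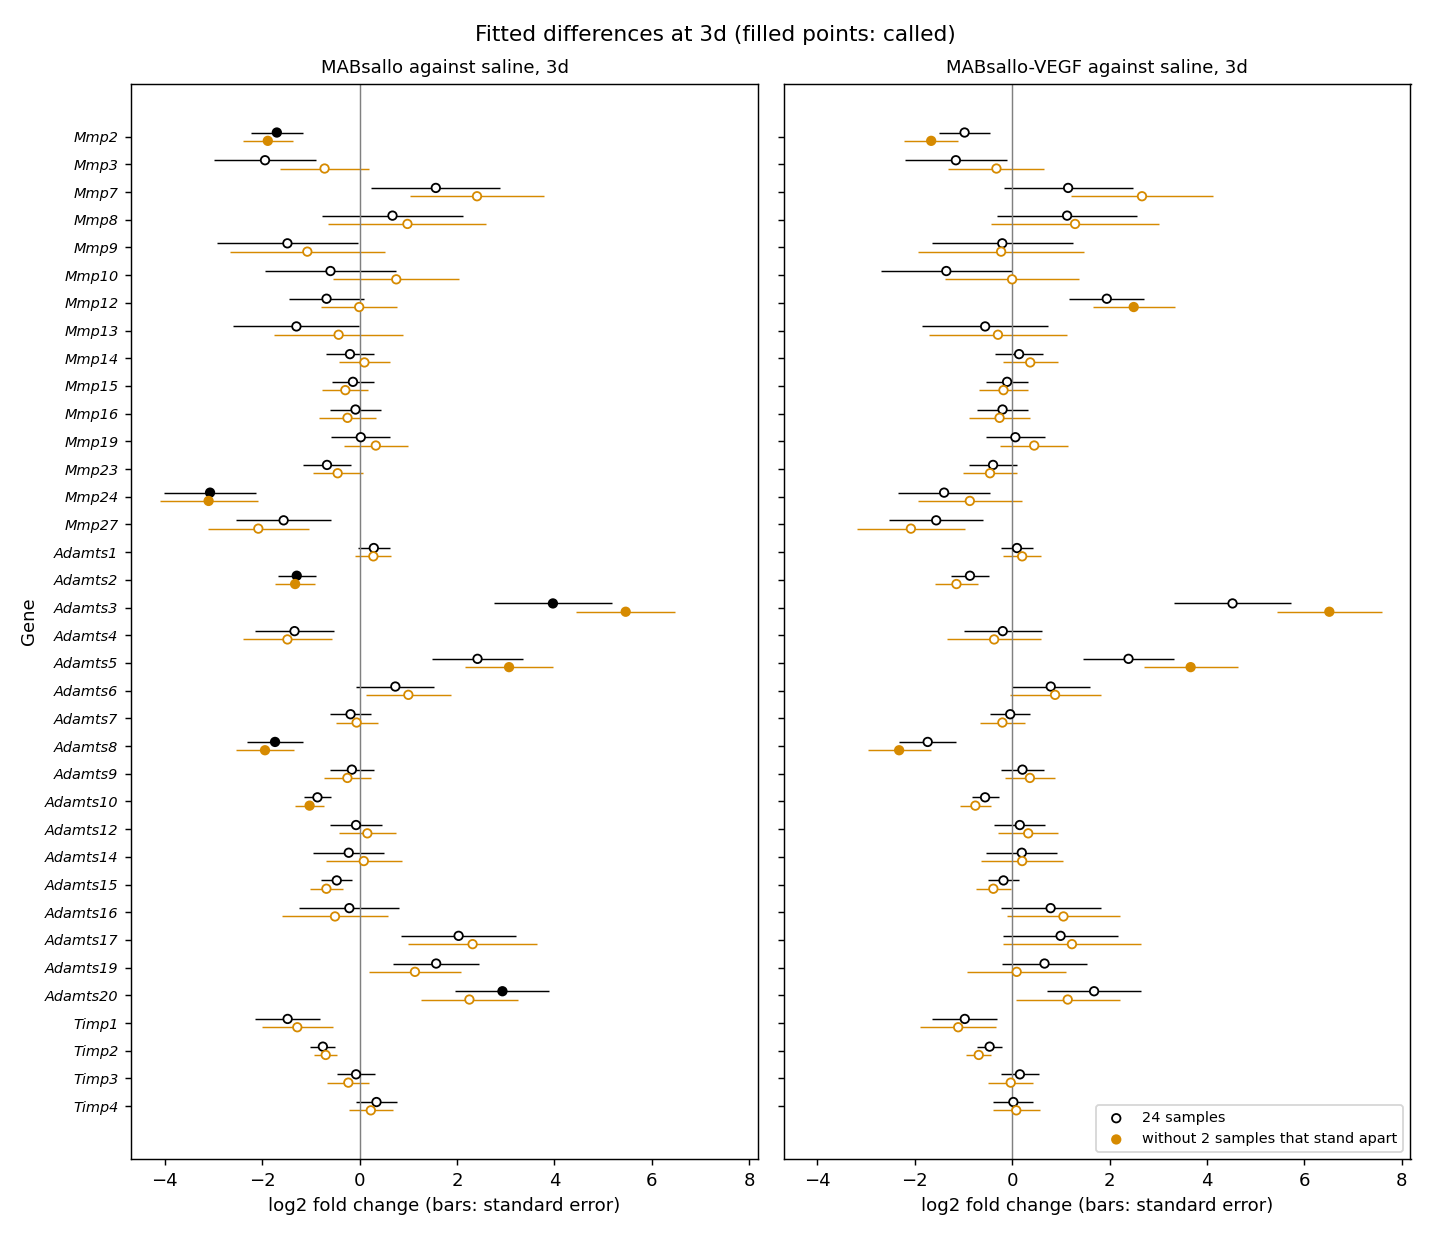
Points are limma log2 fold changes of the 36 genes at 3d, MABsallo against saline on the left and MABsallo-VEGF against saline on the right, with standard error bars; black is the fit of 24 samples, orange that without saline 3d replicate 6 and MABsallo-VEGF 3d replicate 4, and filled points were called. Without the 2 samples 7 genes were called on the left and 5 on the right, against 6 and 0 with them; both panels share the saline samples.

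MABsallo-VEGF were set against saline and against MABsallo at 3d to ask what the VEGF construct adds. No member was called in either comparison by limma, where 0.0307% and 0.00614% of all genes were called. An unadjusted p below 0.05 was reached by 5 and 1 members, and by 2923 and 999 of all 16287 genes tested (limma). On the recovered reads, edgeR and DESeq2 called 0 members in both as well. Of all 16287 genes edgeR called 1 and DESeq2 397 against saline, and each called 0 against MABsallo. Without the 2 samples 5 members were called against saline (Adamts3, Adamts5 and Mmp12 higher, Adamts8 and Mmp2 lower), with 13.6% of all genes (11.4% higher and 2.19% lower), 7 for MABsallo against saline, with 18.1% (13.8% higher and 4.36% lower), and 0 between the cell-treated groups, with 0.0184% (0.0123% higher). Mmp12, the elastase of macrophages, was the member with an unadjusted p below 0.05 between the 2 cell-treated groups. It had 303, 27.4, 57.2 and 63.3 normalized counts in saline, 156, 54.7, 9.23 and 54.2 in MABsallo and 205, 758, 121 and 369.6 in MABsallo-VEGF. Of the MABsallo-VEGF samples 3 lay above every MABsallo sample and 1 did not, and the difference was 2.62 ± 0.77 SE on the log2 scale with adjusted p = 0.461 (limma). The macrophage markers summed to 2399.8 to 19881 in MABsallo and 6229 to 42614 in MABsallo-VEGF, and their part in the result was not tested.

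**Figure D3:**
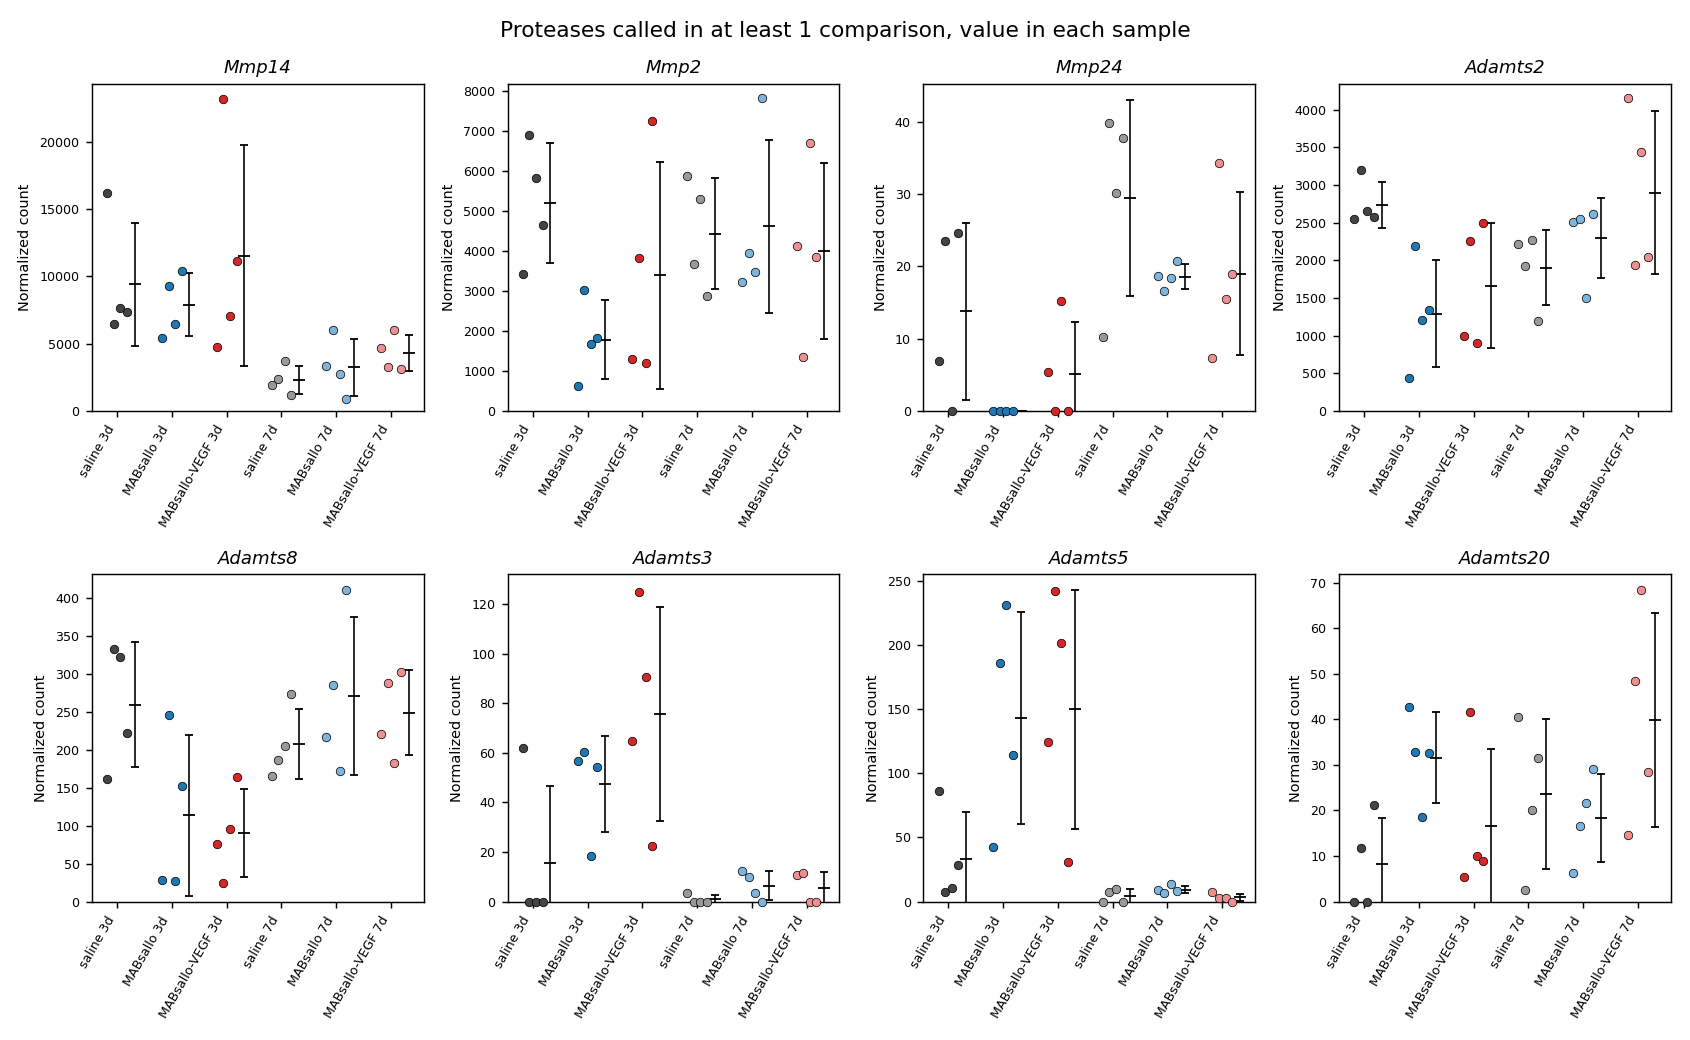
Each panel plots the normalized count of 1 protease gene in each of the 24 samples by group, with the mean and SD to the right of the points (n = 4; SD bars are cut at 0). Mmp2 is low in MABsallo 3d. At 3d Adamts2 is lower in both cell-treated groups than in saline, and Adamts8 is low in most samples of both. Adamts5 and Adamts3 are high in most samples of both cell-treated groups at 3d. The mean of Mmp14 is higher at 3d than at 7d in each treatment, though the days overlap in both cell-treated groups.

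Fibroblast markers were also lower in MABsallo 3d. The 5 measured ones (Col1a1, Dcn, Lum, Pdgfra and Dpt) summed to 263397 to 396008 normalized counts in saline 3d, 38497 to 210807 in MABsallo 3d and 75902 to 427036 in MABsallo-VEGF 3d, none of them being at 0 over a group. Of the 5, 2 were called lower in MABsallo than in saline. MABsallo 3d replicate 1 had the lowest sum and also the lowest Mmp2, Adamts2, Timp1 and Timp2. In the same comparison 6 of 10 macrophage and 6 of 8 mast cell and 2 of 5 endothelial markers were called lower, and 2 of 6 striated muscle markers higher. When the 2 samples were left out, these counts were 6, 6, 2 and 0, and 4 of the 5 fibroblast markers were called lower. Their part in the protease results was not tested.

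At 7d no member was called for MABsallo against saline, MABsallo-VEGF against saline or MABsallo-VEGF against MABsallo (limma), where 0.0% of all genes were called in each. At an unadjusted p below 0.05 there were 4, 3 and 4 members, and 1014, 1033 and 452 of all 16287 genes tested. Timp3 was among these members, with 1481, 869, 1742 and 1116 normalized counts in saline and 3805, 3406, 1927 and 2134 in MABsallo-VEGF. These groups did not overlap, and the difference was 1.10 ± 0.39 SE on the log2 scale with adjusted p = 0.63 (limma). Adamts15, which cuts aggrecan and versican, likewise did not overlap, with 1542, 1396, 1389.9 and 1296 in saline and 3192, 2216, 2101 and 1936 in MABsallo-VEGF (0.72 ± 0.32 SE on the log2 scale with adjusted p = 0.76, limma). The other member that did not overlap was Timp1, which was lower in MABsallo-VEGF (-1.23 ± 0.67 SE on the log2 scale with adjusted p = 0.81, limma). These 3 members compare with 6.04% of all genes. A gene called at 3d and not at 7d is not thereby shown to differ between the days. The test of that difference (day by treatment) called 0 of 36 members for MABsallo and 0 for MABsallo-VEGF (limma), beside 0.0% of all genes in each. In it 8 and 3 members had an unadjusted p below 0.05, as did 2212 and 1341 of all 16287 genes. Without the 2 samples this test called Adamts3 for MABsallo-VEGF (5.25 ± 1.43 SE on the log2 scale with adjusted p = 0.0441, limma), beside 3.59% of all genes. Over all 24 samples the sign of that Adamts3 term turned with edgeR and DESeq2. By edgeR 0 members were called in the 3 comparisons of 7d and in both day by treatment tests, and by DESeq2 0 apart from 1 member in the day by treatment test of MABsallo. Of all genes edgeR called 0 in each of these. DESeq2 called 0, 26 and 4 of all genes at 7d, in the order given above. In the day by treatment tests DESeq2 called 78 for MABsallo and 1 for MABsallo-VEGF.

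The days were then compared within each treatment. In saline 1 member was called, Mmp14, higher at 3d, beside 3.19% of all genes (2.59% higher and 0.602% lower). In MABsallo 7 were called, with Adamts5, Mmp14 and Timp4 higher at 3d and Mmp2, Mmp24, Adamts8 and Timp1 lower, beside 23.0% of all genes (17.0% higher and 6.05% lower). In MABsallo-VEGF 3 were called, with Adamts3 and Adamts5 higher and Adamts8 lower, beside 15.3% of all genes (13.1% higher and 2.24% lower). The median log2 fold change of the members was 0.33, -0.46 and 0.01 in saline, MABsallo and MABsallo-VEGF, and that of all genes 0.05, 0.06 and 0.05. In the same order, samples of the 2 days did not overlap for 10.6%, 27% and 21.8% of all genes. The MABsallo and MABsallo-VEGF samples of 3d are those of the comparisons with saline, so these calls are not independent of them. Markers of other cells were lower too in MABsallo 3d than 7d, with 5 of 5 adipocyte, 7 of 8 mast cell, 3 of 10 macrophage, 3 of 7 smooth muscle, 2 of 7 neutrophil, 2 of 5 endothelial, 1 of 5 fibroblast and 1 of 7 urothelial markers called lower. Their part in the protease results was not tested. With quantile normalization the calls over all genes went from 2765 higher and 986 lower to 2186 and 1847 in MABsallo, and from 2132 and 365 to 1645 and 777 in MABsallo-VEGF, with the median of all genes at -0.21 in both.

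Mmp14 had 16201, 6444, 7616 and 7365 normalized counts in saline 3d, 5453, 9311, 6453 and 10383 in MABsallo 3d and 4779.9, 23228, 7063 and 11132 in MABsallo-VEGF 3d. At 7d the values were 1921, 2392, 3701 and 1176 in saline, 3314, 5997, 2752 and 876 in MABsallo and 4712, 3295, 5992 and 3127 in MABsallo-VEGF. The 2 days did not overlap in saline and overlapped in the other groups. The difference of 3d from 7d was 2.05 ± 0.49 SE on the log2 scale with adjusted p = 0.0236 in saline, 1.54 ± 0.49 SE on the log2 scale with adjusted p = 0.0197 in MABsallo and 1.23 ± 0.49 SE on the log2 scale with adjusted p = 0.0781 in MABsallo-VEGF, the last not called (limma). The saline call was lost without saline 3d replicate 6, 9 or 10 or saline 7d replicate 5, and the MABsallo call without MABsallo 3d replicate 4 or MABsallo 7d replicate 13. The MABsallo call was also lost with edgeR, with and without the 2 samples, and the saline call with a fit of only the groups compared and with edgeR without the 2. With 1 sample left out the differences ranged from 1.75 to 2.32 (largest adjusted p = 0.126, limma) in saline and from 1.01 to 1.93 (largest adjusted p = 0.106, limma) in MABsallo. Without the 2 samples the saline value was 1.75 ± 0.52 SE on the log2 scale with adjusted p = 0.121 (limma).

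Adamts5 at 7d had 0, 7.47, 10.05 and 0 normalized counts in saline, 9.29, 6.62, 13.3 and 8.30 in MABsallo and 7.26, 2.85, 3.10 and 0 in MABsallo-VEGF. All samples of both cell-treated groups were higher at 3d, by 3.59 ± 0.92 SE on the log2 scale with adjusted p = 0.00529 in MABsallo and 5.13 ± 0.92 SE on the log2 scale with adjusted p = 0.000616 in MABsallo-VEGF (limma), and both calls held under each sample left out and each of 13 other settings. In saline the difference was not called (2.86 ± 0.92 SE on the log2 scale with adjusted p = 0.0836, limma). Adamts3 at 7d had 3.38, 0, 0 and 0 in saline, 12.4, 9.93, 3.34 and 0 in MABsallo and 10.9, 11.4, 0 and 0 in MABsallo-VEGF. It was called in MABsallo-VEGF (4.22 ± 1.20 SE on the log2 scale with adjusted p = 0.0157, limma), a call lost without MABsallo-VEGF 3d replicate 2 or MABsallo-VEGF 7d replicate 11 or 12, where it ranged from 3.62 to 4.83 (largest adjusted p = 0.0611, limma) with 1 sample left out. In MABsallo the difference was 3.14 and was not called by limma over all samples. There it was called without the 2 samples, with a pseudocount of 5 and with only the groups compared. Adamts20, at 40.6, 2.49, 20.1 and 31.4 in saline, 6.19, 16.6, 21.7 and 29.1 in MABsallo and 14.5, 48.5, 68.3 and 28.4 in MABsallo-VEGF at 7d, was not called between the days.

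Mmp2 at 7d had 5872, 3669, 5295 and 2883 normalized counts in saline, 3218, 3947, 3469.7 and 7827 in MABsallo and 4121, 1341, 6716 and 3852 in MABsallo-VEGF. Every MABsallo 3d sample lay below every MABsallo 7d sample (-1.47 ± 0.53 SE on the log2 scale with adjusted p = 0.0377, limma), a call lost without MABsallo 3d replicate 1 or 3 or MABsallo 7d replicate 9 or 13, and with sample quality weights. Mmp24 at 7d had 18.6, 16.6, 18.3 and 20.8 in MABsallo, so the 3d group, at 0, was at least 3.64-fold lower (adjusted p = 0.00166, limma). That call held when each sample was left out and was lost with reads thinned to the lowest total. Adamts8 at 7d had 217, 285, 172 and 411 in MABsallo and 221, 288, 183 and 303 in MABsallo-VEGF. Its differences were -1.78 ± 0.58 SE on the log2 scale with adjusted p = 0.0225 and -1.70 ± 0.58 SE on the log2 scale with adjusted p = 0.0403 (limma), lost in MABsallo without 3d replicate 1 or 3 or 7d replicate 13, and in MABsallo-VEGF without any 1 sample but 3d replicate 4. The MABsallo call was also lost with edgeR, DESeq2, edgeR without the 2 samples and a fit of only the groups compared, and the MABsallo-VEGF call with thinned reads. Adamts2 at 7d had 2219, 1929, 2264 and 1189 in saline, 2506, 2546, 1503 and 2619 in MABsallo and 4161, 1942, 3432 and 2046 in MABsallo-VEGF, and was not called between the days. With 1 sample left out the differences ranged from -1.79 to -1.04 (largest adjusted p = 0.16, limma) for Mmp2, and for Adamts8 from -2.35 to -1.32 (largest adjusted p = 0.102, limma) in MABsallo and from -2.08 to -1.19 (largest adjusted p = 0.174, limma) in MABsallo-VEGF.

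The inhibitors were described one by one. Timp1, the inducible inhibitor of wounds, had 6119, 3931, 3388 and 3308 normalized counts in saline 3d, 575, 3889.7, 1440.1 and 1394 in MABsallo 3d and 962, 3734, 1226 and 4136 in MABsallo-VEGF 3d. At 7d it had 2919, 7460.2, 3316 and 8106 in saline, 2853, 1990.05, 37185 and 6814 in MABsallo and 2641, 1575, 2159.9 and 2169 in MABsallo-VEGF. MABsallo 7d replicate 11 stood far above every other sample. Timp1 was called lower at 3d than at 7d in MABsallo (-2.08 ± 0.67 SE on the log2 scale with adjusted p = 0.0213, limma), and this call was lost without MABsallo 7d replicate 11 or MABsallo 3d replicate 1, with values from -2.62 to -1.22 (largest adjusted p = 0.114, limma) when 1 sample was left out. It was also lost with sample quality weights and with a fit of only the groups compared. Against saline at 3d it was not called (-1.48 ± 0.67 SE on the log2 scale with adjusted p = 0.132, limma).

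Timp2, made steadily by stromal cells, had 8078, 6589, 7784 and 6331 normalized counts in saline 3d, 2847, 6625, 4367 and 3949 in MABsallo 3d and 3190.2, 5442, 4500.1 and 9337 in MABsallo-VEGF 3d. All but 1 MABsallo sample lay below saline. The difference of -0.75 ± 0.26 SE on the log2 scale with adjusted p = 0.0493 (limma) passed the adjusted p and missed the fold threshold. Timp3, which is held in the matrix, had group means at 3d of 2482 ± 1256 in saline, 2278 ± 905 in MABsallo and 2543 ± 534 in MABsallo-VEGF (SD, n = 4). It did not separate the groups of 3d, and the sign of its small differences turned under several settings. Timp4, the inhibitor of heart and muscle, had 398, 295, 268 and 179 in MABsallo 3d and 80.5, 142, 135 and 45.7 in MABsallo 7d. The days did not overlap, and the difference of 3d from 7d of 1.57 ± 0.41 SE on the log2 scale with adjusted p = 0.00611 (limma) held under each sample left out and each of 13 other settings. For MABsallo against saline at 3d the log2 fold change of Timp4 was 0.35 and was not called (limma). In saline Timp4 had 169, 251, 197 and 257 at 3d and 213, 127, 147 and 217 at 7d, and in MABsallo-VEGF 395, 133, 288 and 151 at 3d and 127, 328, 282 and 391 at 7d.

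Proteases were set against inhibitors as the sum of the 41 protease genes divided by the sum of the 4 Timp genes. The ratio was 1.89 ± 0.297 in saline, 2.37 ± 0.612 in MABsallo and 2.33 ± 0.588 in MABsallo-VEGF at 3d, and 1.48 ± 0.42, 1.39 ± 0.694 and 1.89 ± 0.375 in the same order at 7d (SD, n = 4). Samples ranged from 1.57 to 2.27 in saline 3d, from 1.56 to 3.03 in MABsallo 3d and from 1.73 to 3.14 in MABsallo-VEGF 3d, so the 3 groups overlapped. At 7d they ranged from 1.11 to 1.91 in saline, from 0.375 to 1.89 in MABsallo and from 1.44 to 2.23 in MABsallo-VEGF. The lowest was MABsallo 7d replicate 11, where Timp1 made up 85.4% of all Timp counts. The highest of MABsallo 3d, 3.03, was replicate 3, where Mmp7 alone gave 9582 of 25286 protease counts. The highest of MABsallo-VEGF 3d, 3.14, was replicate 2, where Mmp14 made up 59.0% of the protease counts. The ratio without Mmp7 was not computed. Both sums had lower means in MABsallo than in saline at 3d. The protease sum was 26391 ± 3602 in saline and 19741 ± 5736 in MABsallo, and the Timp sum 14082 ± 1866 and 8834 ± 3873. Mmp14 alone made up 41.6 ± 11.6% of the protease counts in MABsallo 3d and 16.3 ± 10.3% in MABsallo 7d. No test is given for the ratio.

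**Figure D4:**
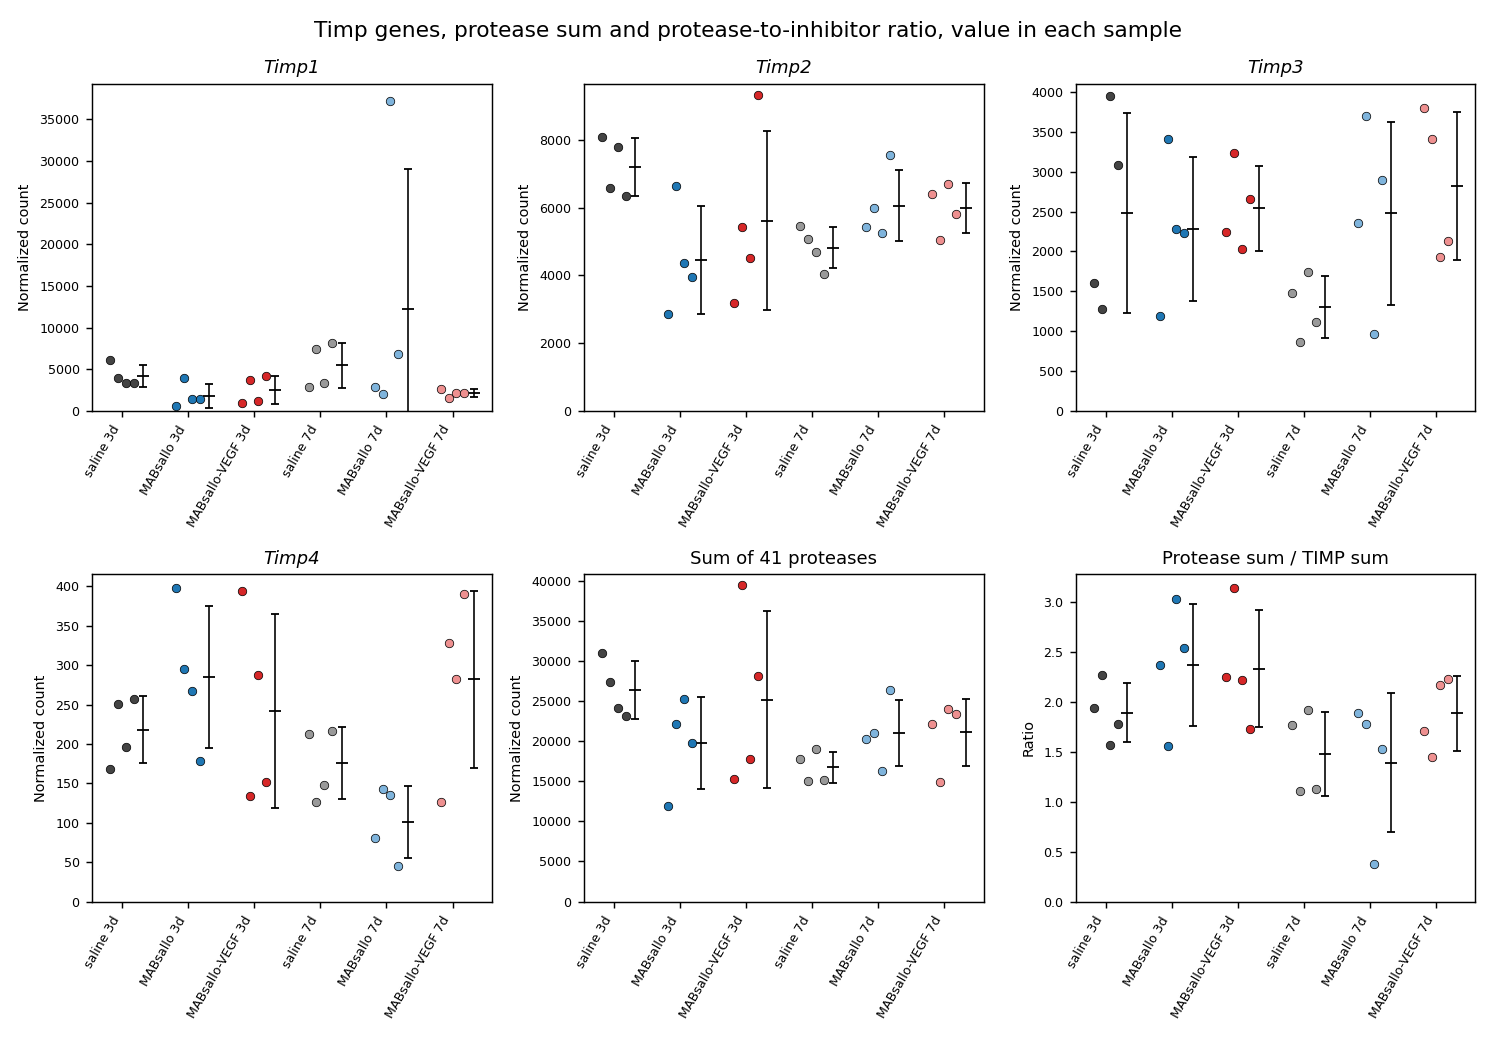
Panels plot, in each of the 24 samples by group, the normalized counts of the 4 Timp genes, the sum of the 41 protease genes and its ratio to the Timp sum, with the mean and SD to the right of the points (n = 4; SD bars are cut at 0). Timp1 is far higher in MABsallo 7d replicate 11 than elsewhere, and the same sample has the lowest ratio.

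Mmp3, Mmp7, Mmp10, Mmp12 and Mmp13 belong to a run of 10 Mmp genes on rat chromosome 8, and single samples stood far above the rest of their group for several of them. Mmp3, the stromelysin that activates other proMMPs, had 740.3, 7.84, 25.02 and 66.9 normalized counts in saline 3d, 7.10, 21.9, 9.23 and 27.1 in MABsallo 3d and 27.04, 16.7, 15.1 and 57.9 in MABsallo-VEGF 3d. At 7d it had 10.1, 24.9, 63.6 and 22.01, 83.6, 36.4, 404 and 41.5 and 25.4, 14.3, 43.4 and 3.15 in the same order. Saline 3d replicate 6 and MABsallo 7d replicate 11 stood above all others. In MABsallo, 3d against 7d, Mmp3 was not called by limma over all 24 samples. It was called lower at 3d without the 2 samples (-2.50 ± 0.85 SE on the log2 scale with adjusted p = 0.029, limma). Neither of the 2 is in these groups, so only the shared spread and the adjustment changed. Over all samples it was also called with edgeR, DESeq2, quantile normalization and only the groups compared. With 1 sample left out it ranged from -2.90 to -1.75 (largest adjusted p = 0.242, limma). Mmp7, matrilysin, which epithelia make, had 1277, 19.6, 122 and 725 in saline 3d, 611, 181, 9582 and 168 in MABsallo 3d and 2287, 100.01, 2028 and 120.2 in MABsallo-VEGF 3d. At 7d it had 1224, 864, 901 and 3868, 4055, 1427, 1963 and 4993 and 744, 1458, 208 and 7752. Within saline 3d Mmp7 spread from 19.6 to 1277, and it was not called in any comparison. Mmp12 at 7d had 77.8, 39.8, 60.3 and 107, 161, 36.4, 28.4 and 91.3 and 54.4, 114, 155 and 189. Mmp10 and the collagenase Mmp13 were also highest in MABsallo 7d replicate 11, at 113 and 48.4.

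The start regions of 6 of the 10 genes in this run hold 2 short motifs, and these 6 are printed to show where the motifs lie. RefSeq promoters of build GRCr8, from 250 bases before to 50 after the start, were matched for 34 of the 45 members and searched for the AP-1 letters TGACTCA and TGAGTCA, which are reverse complements and so cover both strands, and for TATAAA on the gene's strand. AP-1 letters stood in 6 of the 34 (17.6%) and in 4.63% of all promoters, and TATAAA in 9 of the 34 and in 8.80% of all promoters. The 6 with AP-1 letters, Mmp1, Mmp3, Mmp7, Mmp10, Mmp12 and Mmp13, also held TATAAA. The other 4 genes of the run, Mmp1b, Mmp8, Mmp20 and Mmp27, had no AP-1 letters in the window, and of these Mmp20 alone held TATAAA. A match is a string of letters and not a shown binding site. The 80 bases from 100 to 21 before the start are printed with both motifs in capitals, all on the plus strand of chromosome 8.
Mmp13 (GRCr8 chr8:12782729-12782808): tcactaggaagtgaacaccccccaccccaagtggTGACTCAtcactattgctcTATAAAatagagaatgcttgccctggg
Mmp12 (GRCr8 chr8:12866552-12866631): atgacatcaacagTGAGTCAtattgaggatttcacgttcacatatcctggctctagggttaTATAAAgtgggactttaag
Mmp3 (GRCr8 chr8:12925181-12925260): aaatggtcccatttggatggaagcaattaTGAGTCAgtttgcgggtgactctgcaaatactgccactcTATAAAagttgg
Mmp1 (GRCr8 chr8:12943353-12943432): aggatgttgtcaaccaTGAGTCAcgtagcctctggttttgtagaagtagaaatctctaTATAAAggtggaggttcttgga
Mmp10 (GRCr8 chr8:12974607-12974686): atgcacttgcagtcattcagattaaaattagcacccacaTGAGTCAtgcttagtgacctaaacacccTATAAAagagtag
Mmp7 (GRCr8 chr8:13132943-13133022): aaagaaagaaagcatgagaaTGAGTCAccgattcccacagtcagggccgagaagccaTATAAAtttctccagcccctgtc

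Genes that act with these proteases were counted from lists of activators, other inhibitors, ADAMTS-like proteins and substrates. Of 36 tested, 7 were called in MABsallo against saline at 3d (4 higher and 3 lower), beside 12.3% of all genes. On the recovered reads edgeR called 3 and DESeq2 5, beside 1342 and 1920 of all 16287 genes. In MABsallo-VEGF against saline 0 were called, beside 0.0307% of all genes (limma), and without the 2 samples 7, beside 13.6%. With all samples an unadjusted p below 0.05 was reached by 6 of the 36, and by 2923 of all 16287 genes (limma). Plau, the urokinase that starts plasmin and so proMMP activation, was higher in MABsallo (log2 fold change 4.28 ± 1.42 SE, adjusted p = 0.0443, limma), as were the testican gene Spock2 (log2 fold change 4.32 ± 1.38 SE, adjusted p = 0.0384), the basement membrane genes Nid1 (log2 fold change 2.54 ± 0.86 SE, adjusted p = 0.0487) and Col4a2 (log2 fold change 2.85 ± 0.75 SE, adjusted p = 0.0174, limma). Col4a2 had 258, 7.84, 32.2 and 80.9 normalized counts in saline 3d and 405, 585, 582 and 119 in MABsallo 3d. Col4a1, on the same list, was not called. It was read at far higher counts, with 9445, 12359, 8581 and 7211 in saline 3d and 3231, 8786, 5354 and 6862 in MABsallo 3d. The collagen-cutting cathepsin gene Ctsk (log2 fold change -2.35 ± 0.64 SE, adjusted p = 0.0191) and the small proteoglycan genes Bgn (log2 fold change -1.74 ± 0.40 SE, adjusted p = 0.00984) and Dcn (log2 fold change -1.29 ± 0.42 SE, adjusted p = 0.0426, limma) were lower, and Dcn is also one of the fibroblast markers. In the comparison of days 12 of the 36 were called in MABsallo, 6 in MABsallo-VEGF and 0 in saline (limma), beside 23.0%, 15.3% and 3.19% of all genes. For saline 9 of the 36 had an unadjusted p below 0.05, as did 3070 of all 16287 genes (limma). Between the days of saline edgeR called 2 and DESeq2 5 of the 36, beside 988 and 1386 of all genes. For MABsallo-VEGF against saline at 3d both called 0 of the 36, beside 1 (edgeR) and 397 (DESeq2) of all genes.

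The remaining 19 tested members (Mmp8, Mmp9, Mmp10, Mmp13, Mmp15, Mmp16, Mmp19, Mmp23 and Mmp27, and Adamts1, Adamts4, Adamts6, Adamts7, Adamts9, Adamts12, Adamts14, Adamts16, Adamts17 and Adamts19) were not called by limma in any comparison with or without the 2 samples. Between the days Adamts19 was called in MABsallo by edgeR and DESeq2, and Adamts19 and Mmp9 in MABsallo-VEGF by DESeq2. Of all 16287 genes edgeR called 3906 and DESeq2 3721 in MABsallo, and DESeq2 2832 in MABsallo-VEGF. When the 2 samples were left out, Mmp13 was also called by edgeR in MABsallo and Mmp19 by DESeq2 in MABsallo-VEGF. Mmp9, the gelatinase that neutrophils store, had 0, 14.9, 73.7 and 40.9 normalized counts in saline, 49.6, 29.8, 100.1 and 87.2 in MABsallo and 10.9, 14.3, 0 and 3.15 in MABsallo-VEGF at 7d. MABsallo-VEGF lay wholly below MABsallo, and the difference was -3.54 ± 1.44 SE on the log2 scale with adjusted p = 1 (limma). These 2 groups did not overlap for 1.84% of all genes. Neutrophil markers summed to 3215 to 7686 in MABsallo 7d and 428 to 3011 in MABsallo-VEGF 7d, and their part in the Mmp9 difference was not tested. Mmp8, the neutrophil collagenase, had 251, 119, 81.7 and 91.3 in MABsallo and 94.3, 28.5, 6.21 and 15.8 in MABsallo-VEGF at 7d, which overlapped. The versican- and aggrecan-cutting Adamts1 kept to means of 484 ± 60.1 in saline, 598 ± 118 in MABsallo and 537 ± 192 in MABsallo-VEGF at 3d (SD, n = 4). Its relative Adamts4 had 158, 921, 129 and 113 in saline and 56.8, 175, 55.4 and 92.2 in MABsallo at 3d, and saline replicate 8 was the highest. The membrane-type Mmp15 and Mmp16 had 3d means of 875 ± 621 and 447 ± 313 in saline and 704 ± 184 and 381 ± 191 in MABsallo (SD, n = 4). Adamts19 had 21.3, 87.5, 73.9 and 75.9 in MABsallo 3d and 15.5, 16.6, 15.01 and 4.15 in MABsallo 7d. These groups did not overlap, which held for 27% of all genes. The difference of 2.22 ± 0.88 SE on the log2 scale with adjusted p = 0.0581 (limma) did not pass, whereas edgeR gave 2.13 with adjusted p = 0.036 and DESeq2 2.31 with adjusted p = 0.00945.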

How the data were processed

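Urethral RNA of 24 samples was sequenced as QuantSeq 3ʹ mRNA libraries. The authors used fastq-mcf for trimming and HISAT2 for alignment to Rnor6.0. They kept uniquely mapped reads, tallied them by gene (HT-seq Count) and scaled each sample with a DESeq2 size factor. The deposited values are such scaled counts, a signal and not raw reads. Divided by the value of 1 read, 100% of the values of each sample gave whole numbers (tolerance 0.001), so the reads (2170695 to 10166052 a sample) were recovered, and low counts are the least precise. Groups came from the labels. p-values measure the spread between these samples.

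Genes with a mean of at least 2 (16287) were tested by limma-trend (limma 3.58.1, R 4.3.3) on log2(normalized count + 1), 6 groups in 1 fit, two-sided, with Benjamini-Hochberg adjustment. For low genes such fold changes depend on the added 1 and can exceed the ratio of the group means. For MABsallo against saline at 3d, Adamts20 had 2.93 on the log2 scale, with group means of 31.6 and 8.22. Adamts3 had 3.97 on that scale, with group means of 47.4 and 15.5. Alternatives used edgeR 4.0.16, DESeq2 1.42.0, other scalings, filters and a pseudocount of 5, and left out samples. The edgeR and DESeq2 fits and the ratio without the 2 samples that stand apart were chosen after seeing the data. Members chosen for description and for the alternatives were those called in a comparison with or without those 2, the 4 Timp genes and the 3 highest Mmp and Adamts genes, and companion genes where called at 3d or 7d, at most 8. Other genes named were chosen after their values were seen. The members and lists were chosen with earlier results of these data known. The tests were checked on simulated counts with the same fixed spread for all genes and no samples standing apart. That check therefore gives no error rates for these samples.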

Additional observations from a re-analysis of the deposited data

Results flagged for a closer look

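In groups of 4 samples, 1 sample was marked where its gap to the nearest other sample, as a share of the group's range, was above the critical value of Dixon. Of 108 groups, for the 17 genes chosen for description and the protease to Timp ratio, 16 had such a sample. The critical value marks about 1 in 20 groups of independent, normally spread values. These were counts, some at 0, of genes read in the same samples, so the 16 cannot be compared with that rate. Saline 3d replicate 6 was high for Mmp14 (16201 against 6444 to 7616 normalized counts), Mmp3 (740.3 against 7.84 to 66.9), Mmp12 (303 against 27.4 to 63.3) and Adamts3 (62.0 against 0). Saline 3d replicate 8 was high for Adamts10 (3763 against 1191 to 1422) and Adamts2 (3194 against 2545 to 2652). MABsallo 7d replicate 11 was high for Timp1 (37185 against 1990.0 to 6814) and Mmp3 (404 against 36.4 to 83.6) and low for Adamts2 (1503 against 2506 to 2619). MABsallo 3d replicate 3 was high for Mmp7 (9582 against 168 to 611) and low for Adamts3 (18.5 against 54.2 to 60.2). MABsallo-VEGF 3d replicate 2 was high for Adamts20 (41.7 against 5.41 to 10.1). MABsallo 7d replicate 13 was high for Mmp2 (7827 against 3218 to 3947). Mmp7 was high in saline 7d replicate 5 (3868 against 864 to 1224) and in MABsallo-VEGF 7d replicate 12 (7752 against 208 to 1458). Saline 7d replicate 1 had 3.38 for Adamts3, which is 1 read, where the others had 0.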

How the results depend on the processing

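For 48 log2 fold changes of members, 1016 values were computed under alternatives. Of these, 827 kept direction and side of the threshold, 100 lost the call, 59 gained one and 30 changed sign. The cause was not tested. Members called for MABsallo against saline at 3d (6) became 0 with only the groups compared, 3 with edgeR, 3 with thinned reads and 0 to 7 with 1 sample left out. Those for MABsallo-VEGF against saline at 3d (0) became 1 with a pseudocount of 5, 5 with sample quality weights, 5 without the 2 samples that stand apart (edgeR 4, DESeq2 5) and 0 to 3 with 1 sample left out, and at 7d 1 with weights. For saline 3d against 7d (1) the counts were 4 with weights, 0 with only the groups compared, 0 without the 2 samples (edgeR 0), 3 with DESeq2 and 0 to 2 with 1 sample left out. For MABsallo 3d against 7d (7) they were 11 with quantile normalization and 4 to 9 with 1 sample left out. For MABsallo-VEGF 3d against 7d (3) they were 6 with weights, 6 with DESeq2, 8 with DESeq2 without the 2 samples and 1 to 4 with 1 sample left out. Day by treatment, 0 became 1 with DESeq2, with and without the 2 samples, for MABsallo, and for MABsallo-VEGF 1 with weights, 1 without the 2 samples and 2 with DESeq2 without them. The other counts were 0 with each sample left out. Of all 16287 genes edgeR called 1342 for MABsallo against saline at 3d. DESeq2 called 1386 for saline 3d against 7d and 2832 for MABsallo-VEGF 3d against 7d. Quantile normalization gave 4033 for MABsallo 3d against 7d. For weights, thinned reads, 1 sample left out, and edgeR and DESeq2 without the 2 samples, no count of all genes is given.

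The protease to Timp ratio, in the order saline, MABsallo and MABsallo-VEGF at 3d and then at 7d, ranged with 1 sample left out from 1.76 to 1.998, 2.15 to 2.64, 2.06 to 2.53, 1.34 to 1.60, 1.23 to 1.73 and 1.77 to 2.03. With Mmp genes alone it was 1.25, 1.70, 1.67, 0.92, 0.87 and 1.15. With Adamts genes alone it was 0.64, 0.67, 0.66, 0.56, 0.52 and 0.73. Without Mmp14 it was 1.24, 1.41, 1.30, 1.27, 1.16 and 1.51, so the 3d mean was no longer above the 7d mean in saline and MABsallo-VEGF. Without Timp2 it was 3.90, 4.98, 4.72, 2.72, 2.64 and 4.16. As a difference of mean log2 levels it was -5.97, -5.57, -5.52, -5.68, -5.52 and -6.01.

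All 30 sign changes were in log2 fold changes that were not called. Adamts3 day by treatment for MABsallo-VEGF (3.26) was -0.18 with edgeR and -0.31 with DESeq2. For MABsallo against saline at 3d, Mmp12 (-0.68) was 0.35 with edgeR and 0.49 with DESeq2 without the 2 samples and was -1.26 to 0.058 with 1 sample left out. Mmp14 (-0.20) was 0.10 without the 2 samples (edgeR 0.038, DESeq2 0.15) and -0.34 to 0.10 with 1 sample left out, and Timp3 (-0.07) was -0.34 to 0.21. For MABsallo-VEGF against saline at 3d, Mmp14 (0.14) was -0.093 scaled to the same total, -0.13 with weights and -0.28 to 0.48 with 1 sample left out. Mmp3 (-1.15) was -2.06 to 0.068. Timp3 (0.16) was -0.077 scaled to the same total, -0.39 with weights, -0.028 without the 2 samples, -0.069 with edgeR, and without the 2 samples -0.26 with edgeR and -0.14 with DESeq2, and -0.11 to 0.43 with 1 sample left out. Timp4 (0.03) was -0.21 scaled to the same total, -0.12 with quantile normalization and -0.26 to 0.26 with 1 sample left out.

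With the replicate block, members called for MABsallo-VEGF against MABsallo at 3d stayed at 0. These groups alone share all their numbers, and deviations of same-numbered samples correlated at 0.22, 0.15, 0.07 and 0.25, so the numbers were not taken to pair them. Mmp24, Adamts3 and Adamts20 rest on few reads.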
